A study of Mus musculus with 2 samples.

Results

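The sodium-potassium pump and FXYD subunits are the genes of the pump's β subunits, Atp1b1, Atp1b2 and Atp1b3, and of 4 of its small FXYD partners, Fxyd1, Fxyd2, Fxyd4 and Fxyd5. They were taken from a named list and looked up by gene symbol among the 19505 genes of the arrays, and 6 of the 7 were found, each with 1 probe set. Fxyd5 was matched by no probe set with the symbol of 1 gene and is not analysed here. Proximal tubular (PT) cells were isolated from kidneys of KAT5 KO mice and of wild-type mice, and RNA of each genotype was read on 1 Clariom S mouse array. KAT5 KO mice carried floxed Kat5 alleles and a γGT-Cre transgene on a C57BL/6J background, so that deletion was aimed at PT cells by the promoter of γGT, a brush border enzyme. The other array is labelled wild type, without a statement on Cre or floxed alleles. Both labels give male mice of 8 weeks and 64 ng of RNA, and the number of mice behind each array is not given in the sources used here. Genes of the Y chromosome, given below, do not bear out the male label of the KAT5 KO array. PT cells were prepared by removing endothelial cells with an antibody against CD31 and then selecting cells with an antibody against Prominin1. With 1 array per genotype there was no replicate, so the values carry no error, test or p-value, and 1 array per group limits their precision.

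The sodium-potassium pump sits in the basolateral membrane of tubule cells, where it moves sodium out of the cell and potassium in at the cost of ATP. Its α subunit binds ATP and the ions, its β subunit is needed for the α subunit to fold and to reach the membrane, and a FXYD protein can join the pair and shift the affinity of the pump for sodium or potassium. The sodium gradient that results drives uptake of phosphate, glucose, amino acids and other solutes in the PT and of sodium chloride in the segments that follow.

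Fxyd2 was the member with the largest positive difference, 2.31-fold higher on the KAT5 KO array than on the wild-type array. Atp1b1 and Atp1b3 differed by less than 2-fold, and Fxyd4 was 1.999-fold lower, a fraction short of 2-fold. Neither array showed Atp1b2 or Fxyd1 above the background level. The levels are deposited log2 values, on which 1 unit is a 2-fold difference, and differences are KAT5 KO minus wild-type. The background level was 5.14, the higher of the 95th percentiles that 1463 odorant, pheromone and taste receptor genes reached on the arrays. Genes over this level on either array were taken as measured, which held for 4 of the 6 members and for 11634 of all genes. Of the 4 measured members, 1 was 2-fold or more higher, 0 were lower and 3 were within 2-fold. Over all measured genes 17.8% were 2-fold or more higher, 15.9% were lower and 66.3% were within 2-fold, so the counts do not set the members apart. Their median difference was 0.34, and that over all measured genes was -0.05.

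**Figure D1:**
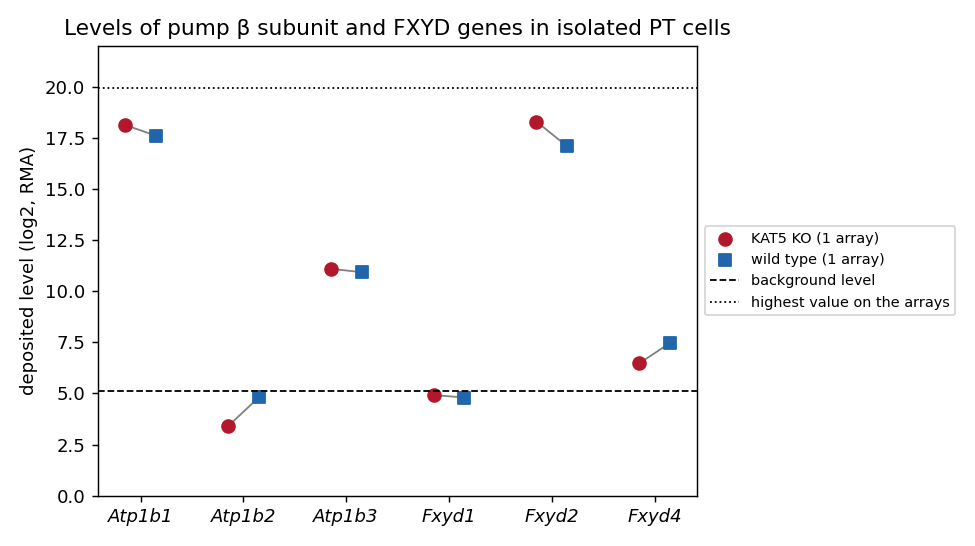
Deposited log2 level (vertical axis) of the 6 members found on the arrays, with 1 point for the KAT5 KO array (circle) and 1 for the wild-type array (square), and lines at the background level of 5.14 and at the highest value of 19.93. Atp1b1 and Fxyd2 lay near the top on both arrays, and Atp1b2 and Fxyd1 were below the background line.

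Of the β subunits, Atp1b1 encodes β1, the main β subunit of kidney epithelium. Its level was 18.13 on the KAT5 KO array and 17.61 on the wild-type array. The difference was 0.52, or 1.43-fold higher, and 28.4% of the measured genes had a larger difference. Atp1b3 encodes β3, a form that is found in many tissues and in lymphocytes. It was at 11.10 on the KAT5 KO array and 10.93 on the wild-type array, a difference of 0.16 or 1.12-fold. Both β subunits were therefore on the same side within 2-fold, and the difference of Atp1b1 exceeded that of Atp1b3 by 0.36. Atp1b2 encodes β2, which is best known from glia and neurons. It was at 3.39 on the KAT5 KO array and 4.81 on the wild-type array, and its deposited difference of -1.42 was between 2 values under the background level. No fold change is given for it for that reason.

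Of the FXYD proteins, Fxyd2 encodes the γ subunit of the pump, which lowers its affinity for sodium and whose mutation in humans causes renal loss of magnesium. Fxyd2 was at 18.30 on the KAT5 KO array and 17.09 on the wild-type array. The difference was 1.21, and 14.7% of the measured genes had a larger one. Its probe set is annotated with 2 mRNA and 1 non-coding accession, so the splice forms of the γ subunit are not told apart. The difference of Fxyd2 exceeded that of Atp1b1 by 0.69 (1.62-fold) and that of Atp1b3 by 1.05 (2.07-fold). On the KAT5 KO array Fxyd2 lay 1.64 below 19.93, the highest value on the arrays, and Atp1b1 lay 1.80 below it. On the wild-type array Fxyd2 lay 2.85 below this value and Atp1b1 2.32 below it. Both members are thus near the upper end of the scale, at which 20 probe sets of the KAT5 KO array and 35 of the wild-type array stood, and a part of this in their differences was not tested.

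Fxyd4 encodes CHIF, a corticosteroid-induced partner of the pump in the collecting duct that raises its affinity for sodium. It was at 6.47 on the KAT5 KO array and 7.47 on the wild-type array, or 1.33 and 2.33 above the background level. The difference was -0.999, and 15.9% of the measured genes had a more negative one. The value lay just inside 2-fold and passed it (-1.03) when the arrays were quantile normalized to each other. Fxyd2 and Fxyd4 lay on opposite sides of 0, and their differences were 2.21 apart (4.63-fold). Fxyd1 encodes phospholemman, the kinase-regulated partner of the pump in heart and skeletal muscle. It was at 4.92 on the KAT5 KO array and 4.80 on the wild-type array, both under the background level.

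**Figure D2:**
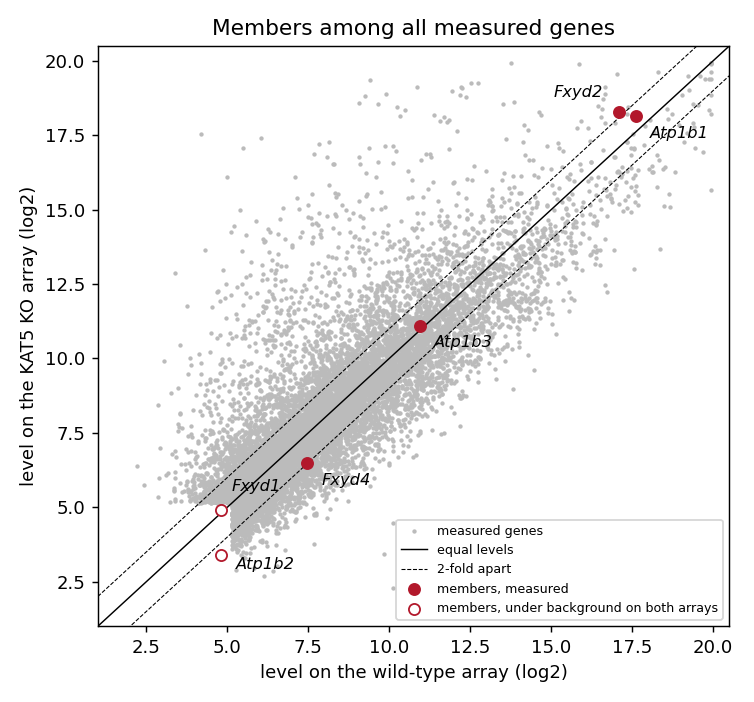
Log2 level on the KAT5 KO array (vertical axis) against the level on the wild-type array (horizontal axis) for the 11634 measured genes (grey), with measured members as filled circles and members under the background level on both arrays as open circles. Fxyd2 lay above the upper dashed line of 2-fold, Fxyd4 lay at the lower one, and Atp1b1 and Atp1b3 lay between the lines.

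The relatives of the members that are reported here were under background, within 2-fold or lower. Atp1a4, the α subunit of sperm, was at 2.69 on the KAT5 KO array and 2.67 on the wild-type array, both under the background level. Of 7 further relatives, 3 were measured. Atp4a, the catalytic subunit of the gastric proton-potassium pump, was at 8.13 on the KAT5 KO array and 10.90 on the wild-type array, a difference of -2.77. Its β subunit Atp4b and the colonic proton-potassium pump Atp12a were under the background level on both arrays, as were Atp1b4 and Fxyd3. Fxyd6, known as a pump partner in the inner ear and brain, was at 5.59 on the KAT5 KO array and 6.17 on the wild-type array, and Fxyd7, a partner in the brain, was at 5.21 on the KAT5 KO array and 5.77 on the wild-type array. Neither differed by 2-fold, and on the KAT5 KO array both lay close to the background level of 5.14. In RefSeq, Fxyd6 and Fxyd2 are next to each other among protein-coding genes, and they had differences of -0.58 and 1.21. Fxyd5, Fxyd7 and Fxyd1 follow each other in the same way, and Fxyd3 is separated from them by 1 gene, Lgi4. Of these, Fxyd7 alone was above the background level, on both arrays, and Fxyd5 was not analysed.

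The genes through which sodium enters tubule cells were much further apart between the arrays than the pump subunits. All 10 measured genes of PT sodium entry were 2-fold or more higher on the KAT5 KO array, with a median difference of 6.44. Among them, Slc13a1, which takes up sulfate, differed by 8.20, and Slc9a3, the apical sodium-proton exchanger, by 2.14. Slc34a1, the main phosphate carrier, stood at the highest value of the scale on the KAT5 KO array, so that its difference of 6.16 and the median are lower bounds. The smallest of these differences, 1.24 for the glucose carrier Slc5a1, was close to the 1.21 of Fxyd2. Of 6 genes of sodium entry in later segments, 5 were lower and 1 was higher (median -3.15). The chloride-coupled carriers Slc12a1 of the thick ascending limb and Slc12a3 of the distal convoluted tubule differed by -4.55 and -1.89, and the sodium-proton exchanger Slc9a2 by 2.30. The measured pump subunits had differences from -0.999 to 1.21, below the smallest difference of PT sodium entry. Their median of 0.34 lay between the medians of the PT and later-segment lists, whose values overlapped only through Slc9a2. On the wild-type array Fxyd2 and Atp1b1 lay 2.85 and 2.32 below the highest value of the scale, and the median level of PT sodium entry was 9.23. A rise as large as the median of PT sodium entry could therefore not have been seen for Fxyd2 or Atp1b1. Basolateral potassium channels, which return the potassium that the pump brings in, were split, with 3 of 5 higher and 2 lower. Kcnj15, Kcnk5 and Kcnj16 differed by 7.06, 4.13 and 3.15 and Kcnj10 by -1.66. Kcnq1 was under background on the KAT5 KO array and at least 3.13-fold lower.

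**Figure D3:**
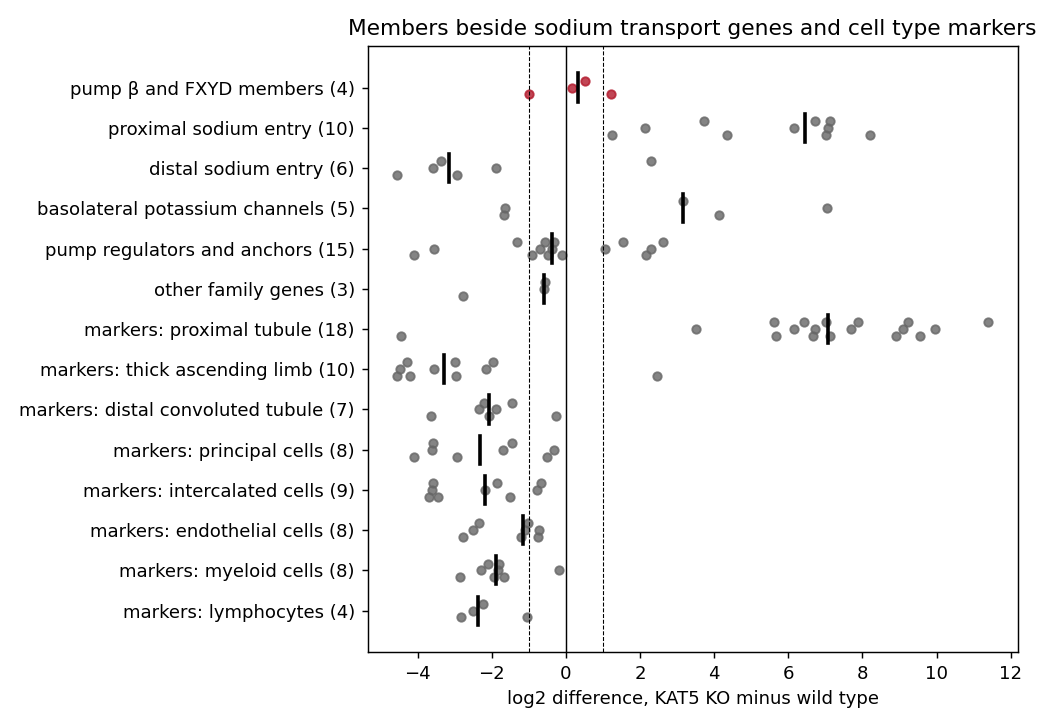
Log2 difference, KAT5 KO minus wild-type (horizontal axis), of each measured gene of a list, with the number measured in parentheses, a bar at the median of the list and dashed lines at 2-fold. The 4 measured members (red) lay between -0.999 and 1.21, PT sodium entry and PT markers lay to the right except Kap among the PT markers, and most other markers lay to the left.

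Regulators and anchors of the pump were mixed. Of 15 measured, 5 were 2-fold or more higher, 3 were lower and 7 were within 2-fold, and the median was -0.37. Higher were the protein kinases Prkcz (2.63) and Prkca (1.05), which phosphorylate the pump, Ank3 (2.29) and Sptbn1 (1.54), members of the ankyrin and spectrin families that anchor membrane proteins, and Nkain1 (2.17), whose product binds the pump. Lower were Hsd11b2 (-4.08), which protects the mineralocorticoid receptor from glucocorticoids, and the phosphatase inhibitor Ppp1r1a (-3.55). Ppp1r1b, a dopamine-regulated phosphatase inhibitor, was under background on the KAT5 KO array and at least 2.48-fold lower. The aldosterone-induced kinase Sgk1 differed by -0.56, the mineralocorticoid receptor Nr3c2 by -0.71 and the ubiquitin ligase Nedd4l by -0.92. Of the genes listed for transcription of Fxyd2, Pcbd1 alone was found by symbol. It encodes a coactivator of HNF1 factors, which drive FXYD2 in human kidney, and also an enzyme of biopterin recycling. Pcbd1 was at 13.55 on the KAT5 KO array and 9.26 on the wild-type array, a difference of 4.29, against 1.21 for Fxyd2.

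Kat5, the targeted gene, was at 8.67 on the KAT5 KO array and 10.20 on the wild-type array, 34.8% of the wild-type level. Of the measured genes, 8.4% had a more negative difference than Kat5. The labels give male mice for both arrays. Eif2s3y, Uty and Kdm5d, genes of the Y chromosome, were under background on the KAT5 KO array and between 7.69 and 10.11 on the wild-type array. Prom1, the antigen used to select the cells, was at 13.74 on the KAT5 KO array and 9.07 on the wild-type array (25.5-fold higher). Of 18 PT markers, 17 were 2-fold or more higher and 1, Kap, was lower, with a median of 7.07, a lower bound since Slc34a1 is among them. Their summed level, on the log2 scale, was at least 22.4 on the KAT5 KO array and 16.1 on the wild-type array, and 0 of them were under the background level on either array. Such sums add probe sets of unequal brightness and serve only to compare the arrays. Some genes, Slc34a1 and Slc12a1 among them, are in both a pathway list and a marker list, so these lists share values. Markers of other kidney cells were mostly lower. Of 10 markers of the thick ascending limb, where the pump is dense and the γ subunit is abundant, 9 were lower and 1 was higher. Their median was -3.27, and the summed level was 16.2 on the KAT5 KO array and at least 20.4 on the wild-type array, where Umod stood at the highest value of the scale. Of 7 markers of the distal convoluted tubule 6 were lower (median -2.07), of 9 of intercalated cells 7 (median -2.17), of 8 of endothelial cells 6 (median -1.16), of 8 of myeloid cells 7 (median -1.88) and of 4 measured of lymphocytes 4 (median -2.37), with 0 higher in each. Of 3 measured markers of podocytes 1 was lower, of 7 of fibroblasts and mural cells 4 and of 5 of neutrophils 3, again with 0 higher. In bulk RNA, fewer cells of a type and less RNA per cell cannot be told apart, and the part of these markers in the differences of Fxyd2, Atp1b1 and Atp1b3 was not tested.

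Principal cells of the collecting duct are the cells in which Fxyd4 is best known. Of their 8 measured markers, 6 were lower and 0 were higher (median -2.32). The summed level of these markers, on the log2 scale, was 12.3 on the KAT5 KO array and 14.7 on the wild-type array, and 0 were under the background level. The water channel Aqp2 was at 9.65 on the KAT5 KO array and 13.26 on the wild-type array, a difference of -3.60. The difference of -0.999 of Fxyd4 was smaller in size than those of 6 of the 8 markers. The part of these cells in the difference of Fxyd4 was not tested.

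Among 118 measured genes of these lists, the gene nearest to each member by Euclidean distance over the 2 log2 levels was Lyz2 for Atp1b1 (distance 1.51) and for Fxyd2 (1.53), Sptan1 for Atp1b3 (1.07) and Slc4a1 for Fxyd4 (0.24). The next were C1qb and Wnk1 for Atp1b1, Nedd4l and Sik1 for Atp1b3, C1qb and Slc12a3 for Fxyd2, and Pecam1 and Rgs5 for Fxyd4. The distance rests on 2 arrays and also on how brightly each probe set reads, so it describes position on the scale.

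**Figure D4:**
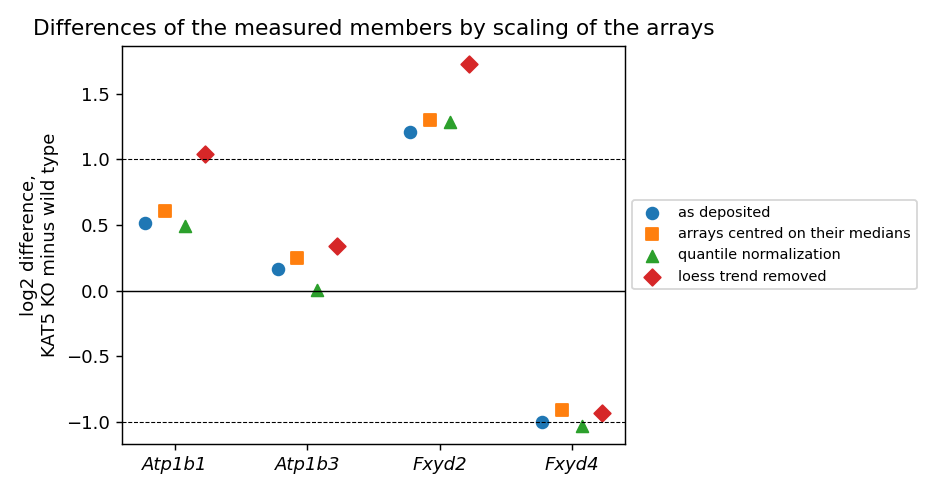
Log2 difference, KAT5 KO minus wild-type (vertical axis), of the 4 measured members with the values as deposited and after 3 further scalings of the arrays, with dashed lines at 2-fold. Fxyd2 stayed above the upper line under each scaling, Atp1b1 passed it only with the loess trend removed (1.04), and Fxyd4 passed the lower line only with quantile normalization (-1.03).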

How the data were processed

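Per the labels, the authors used RMA within the Transcriptome Analysis Console, and the deposited table holds a log2 level for each of 28846 probe sets of the Clariom S arrays. Tool versions are not given in the sources used here. Of the probe sets, 19572 carried the symbol of 1 gene by the platform annotation. The other 9274, without a symbol or with more than 1, were left out. Some genes of the pump family are not reported here. Probe sets of a gene were averaged. Levels below background were set to the background level before the difference was taken, and with 1 side under it, or at the highest value, the difference is a lower bound. Groups came from the genotype in the labels. There was 1 array per genotype, so 2-fold was a threshold of size and not a test. The members and gene lists were chosen with earlier results of these data known. The genes named are the members, a selection of genes of the pathway lists, up to 3 markers of a cell type in each direction and the 3 genes nearest to each member. Prom1 and the Y-linked genes were added as checks of the labels and the sort. The computation was tested on simulated data with differences set beforehand, in Python 3.11.15, numpy 2.4.6, pandas 2.3.3, statsmodels 0.14.6 and matplotlib 3.10.9.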

Additional observations from a re-analysis of the deposited data

How the results depend on the processing

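The differences of the members and of Kat5, the counts of members and the medians of the members and of all measured genes were recomputed. In turn, the arrays were centred on their medians or quantile normalized. The dependence of the difference on the mean level was removed by loess (span 0.3). The background level was set at the 99th percentile of the receptor genes, at the median of all probe sets or left out. The brightest probe set of a gene was used, and thresholds of 1.5-fold and 3-fold were applied. Results for the gene lists, Prom1, the Y-linked genes, pairs of members and nearest genes were not recomputed. The median of all measured genes was -0.05 as deposited and ranged from -0.11 without a background level to 0.05 after loess. The 4 measured members kept their direction under each of these settings, with differences from 0.49 to 1.04 for Atp1b1, 0.0057 to 0.34 for Atp1b3, 1.21 to 1.73 for Fxyd2 and -1.03 to -0.91 for Fxyd4. Only median centring, quantile normalization and loess could change these differences. The other settings could not, because each of these members had 1 probe set and lay above every background level used. With the loess trend removed Atp1b1 passed 2-fold (1.04), which made 2 members higher, and with quantile normalization Fxyd4 passed it (-1.03), which made 1 member lower. At the 1.5-fold threshold Fxyd4 (-0.999) was the 1 lower member. At 3-fold Fxyd2 (1.21) and Kat5 (-1.52) were no longer past the threshold, and 0 members were higher. Without a background level Atp1b2 (-1.42) and Fxyd1 (0.12) entered the comparison, which made 6 members measured and 1 lower, with a median of 0.14. No array could be left out, and no paired analysis was possible because each genotype had 1 array.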
